A study of Mus musculus with 2 samples.

Results

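The 46 genes described here build the kinetochore, run the spindle checkpoint, drive mitotic entry and exit, complete cytokinesis and shape mitotic chromosomes. They are a list of gene symbols, chosen with earlier results of these data known. All 46 were found by symbol among the 43346 Ensembl genes of the deposited tables. The data are total RNA-seq of hindbrain from mouse embryos of strain B6NCrl at 13.5 days, healthy and with no treatment or mutation in the labels, with male and female embryos pooled. There are 2 libraries, numbered by the labels as biological replicates 1 and 2, each from 10 ng of RNA, and they form 1 group with no contrast. They have a donor label in common but separate biosample labels, and their spread may in part be technical.

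A kinetochore is the protein plate that assembles on centromeric chromatin marked by the histone variant CENP-A and holds the spindle microtubules. The spindle checkpoint keeps the anaphase-promoting complex (APC/C) inactive until every chromosome is attached, after which the APC/C has securin and cyclin B degraded, sister chromatids part and the cell divides. In the embryonic hindbrain, dividing cells are mainly progenitors of the ventricular zone and rhombic lip, beside postmitotic neurons. Many genes of late cell cycle carry a CHR element (cell cycle genes homology region), through which the DREAM and MuvB complexes are known to act, together with CCAAT boxes, the binding motif of NF-Y.

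Estimated counts on Ensembl genes totalled 32314725 in replicate 1 and 37772709 in replicate 2, and spike-ins took 5.50% and 5.99% of all TPM (a transcript level corrected for length and scaled to a fixed total per library). Of 10 hindbrain marker genes, 9 reached 1 TPM in both libraries, with En2 the exception at a mean of 0.53 TPM, and of 8 forebrain markers 1 did (Lhx2). Choroid plexus markers differed between the libraries. Their summed TPM was 613 in replicate 1 and 1165 in replicate 2. Mesenchyme markers went the other way, at 755 and 586 TPM.

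Promoter letters of 6 of these genes are shown because CHR elements and CCAAT boxes are what their upstream sequences were searched for. Each line gives the 120 bases before a RefSeq transcript start on build GRCm38.p6, written 5′ to 3′ along the gene, with matches to either motif on either strand in capitals (TTTGAA or TTCAAA for the CHR element, CCAAT or ATTGG for the CCAAT box). Cdk1 is at chr10:69352913-69353032 on the reverse strand and Cdc20 at chr4:118437344-118437463 on the reverse strand. Ube2c is at chr2:164769809-164769928 on the forward strand and Top2a at chr11:99024190-99024309 on the reverse strand. Prc1 is at chr7:80294356-80294475 on the forward strand. Ccnb1, at chr13:100786487-100786606 on the reverse strand, is given as a case with CCAAT boxes and no CHR match. No other form of the CHR element was searched for, so a gene without a match may still hold one.
Cdk1: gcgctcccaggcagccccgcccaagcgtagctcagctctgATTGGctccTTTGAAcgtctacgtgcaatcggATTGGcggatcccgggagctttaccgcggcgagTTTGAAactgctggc
Cdc20: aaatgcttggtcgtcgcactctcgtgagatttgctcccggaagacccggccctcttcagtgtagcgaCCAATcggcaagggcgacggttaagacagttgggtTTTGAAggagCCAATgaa
Ube2c: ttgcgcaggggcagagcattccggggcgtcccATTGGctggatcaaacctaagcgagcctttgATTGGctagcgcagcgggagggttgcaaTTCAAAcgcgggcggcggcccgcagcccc
Top2a: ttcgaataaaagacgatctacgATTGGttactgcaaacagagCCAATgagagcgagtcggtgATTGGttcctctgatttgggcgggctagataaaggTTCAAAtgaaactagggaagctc
Prc1: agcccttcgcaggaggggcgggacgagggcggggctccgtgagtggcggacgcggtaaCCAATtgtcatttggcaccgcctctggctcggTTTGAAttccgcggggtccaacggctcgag
Ccnb1: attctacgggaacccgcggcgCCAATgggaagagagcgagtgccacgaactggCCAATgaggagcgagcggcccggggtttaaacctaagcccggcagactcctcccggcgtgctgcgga
The Cdk1 window held a CHR match at positions -71 to -66 and another at -15 to -10, counted from the transcript start, and that of Cdc20 held its match at -18 to -13. In Top2a 1 of its CHR matches, on the reverse strand, lay at -23 to -18, and in Ube2c, likewise on the reverse strand, at -29 to -24.

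All 46 genes were detected, meaning that each reached 1 TPM in replicate 1 and in replicate 2. Of all Ensembl genes, noncoding ones included, 35.4% did. The share among protein coding genes was not computed, and the list was chosen with earlier results known. Their median level was 22.2 TPM in replicate 1 and 21.6 TPM in replicate 2, a mean of 21.9 ± 0.477 TPM (SD, n = 2). The median over the 15878 genes averaging at least 1 TPM was 15.1 TPM in replicate 1 and 15.0 TPM in replicate 2. Summed, the 46 genes held 0.145% of TPM in replicate 1 and 0.135% in replicate 2. Between the highest, Bub3, and the lowest, Anln, lay a 37.5-fold range of mean TPM. In this range, 6 genes had a mean of 50 TPM or more and 12 had less than 10 TPM. Each gene rested on 182 to 6883 estimated counts per library. In bulk tissue, fewer cells of a type and less RNA per cell cannot be told apart.

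**Figure D1:**
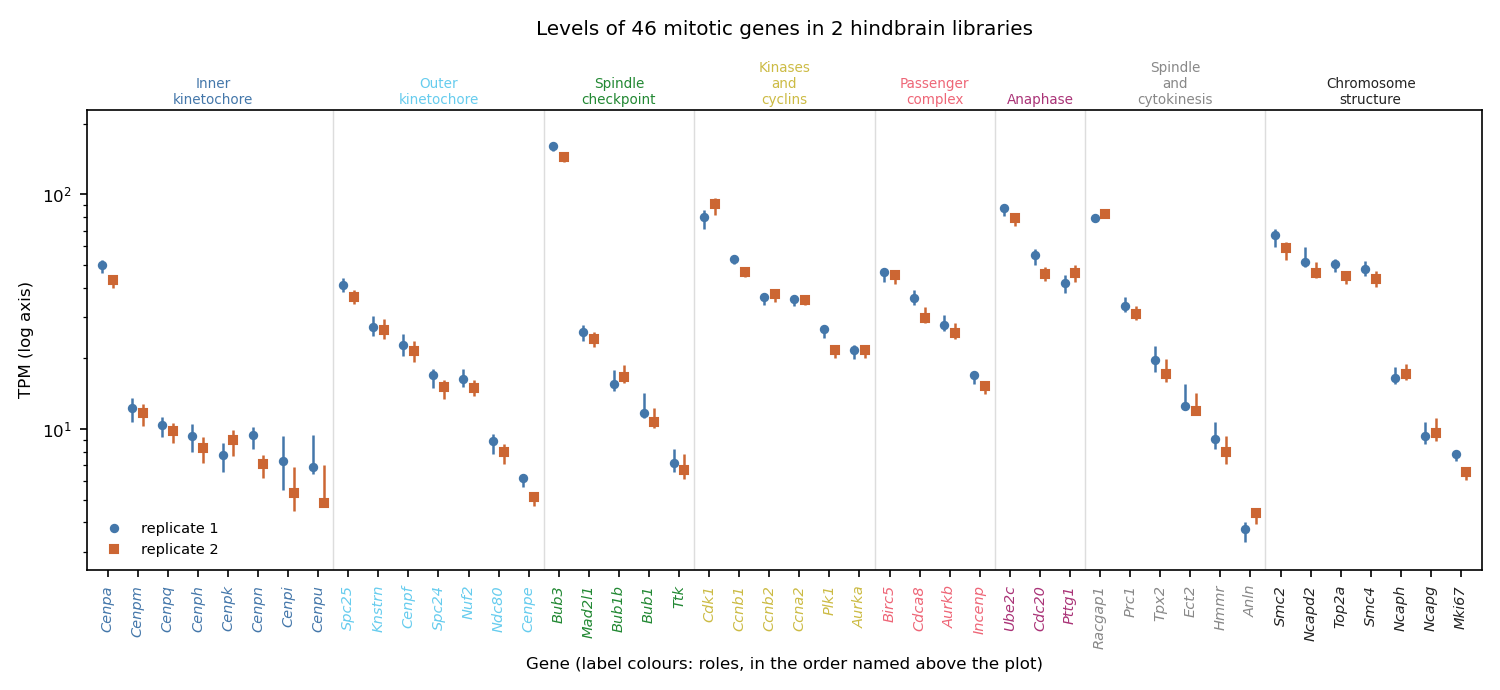
TPM of each of the 46 genes (log axis) in replicate 1 (circles) and replicate 2 (squares), with bars for the deposited credibility interval of TPM, whose level is not stated. Genes are grouped by role and sorted by mean TPM within a role. Bub3 stands highest at a mean of 153 TPM, Anln lowest at 4.07 TPM, and the inner kinetochore genes other than Cenpa lie near or below 12 TPM.

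Inner kinetochore genes other than Cenpa were expressed at low levels. Cenpa, the centromeric histone H3 variant, had 50.02 TPM in replicate 1 and 42.98 TPM in replicate 2. Next came Cenpm, with 12.3 and 11.7 TPM, and Cenpq, with 10.4 and 9.78 TPM, both subunits of the constitutive centromere-associated network (CCAN) that binds CENP-A chromatin. The remaining CCAN members had means below 10 TPM. Cenph had 9.38 and 8.27 TPM, Cenpk 7.75 and 8.94 TPM and Cenpi 7.32 and 5.36 TPM. Cenpn, whose product recognises the CENP-A nucleosome, had 9.46 and 7.07 TPM, and Cenpu 6.92 and 4.86 TPM. The deposited intervals of Cenpn did not overlap between the libraries, and those of Cenpi and Cenpu did. Within the CENP-H, CENP-I, CENP-K and CENP-M group of subunits, the highest gene, Cenpm, exceeded the lowest 1.68-fold in replicate 1 and 2.19-fold in replicate 2.

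The outer kinetochore genes had a median of 17.0 TPM in replicate 1 and 15.1 TPM in replicate 2, above the inner kinetochore median of 9.42 and 8.61 TPM. Of the 4 subunits of the NDC80 complex, which grips microtubule ends, Spc25 had 41.2 TPM in replicate 1 and 36.5 TPM in replicate 2, Spc24 had 17.0 and 15.1 TPM, Nuf2 had 16.4 and 15.0 TPM and Ndc80 itself had 8.91 and 8.01 TPM. Spc25 thus exceeded Ndc80 4.62-fold in replicate 1 and 4.55-fold in replicate 2, in a complex known to hold its 4 proteins in equal copies. Without the division by length the ratio of highest to lowest, in counts scaled by library total (CPM), was 2.80 in replicate 1 and 2.75 in replicate 2. Knstrn, a partner of kinetochore-bound microtubules, had 27.1 and 26.5 TPM, and Cenpf, a large coiled-coil protein of the outer kinetochore, 22.8 and 21.4 TPM. Cenpe, a kinesin that moves chromosomes to the spindle equator, had 6.21 and 5.15 TPM. Over all 15 kinetochore genes the median was 10.1 ± 0.438 TPM (SD, n = 2).

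The checkpoint genes included the highest of the 46. Bub3 (chr7:131560222-131571895, forward strand, GRCm38), an adaptor that brings Bub1 and BubR1 to kinetochores, had 161 TPM in replicate 1 and 144 TPM in replicate 2, on 6504 and 6883 counts. Mad2l1 (Mad2), an inhibitor of Cdc20, had 26.03 and 24.18 TPM. Bub1b, which encodes BubR1, had 15.6 and 16.6 TPM, and the kinase gene Bub1 11.7 and 10.8 TPM. Ttk (Mps1), the kinase that starts checkpoint signalling, was lowest with 7.17 and 6.67 TPM. The order of the 5 genes was the same in both libraries. On the log2(TPM + 1) scale the checkpoint median lay 0.63 ± 0.118 above the median of all 15 kinetochore genes (SD, n = 2). It did not lie above the outer kinetochore genes alone in both libraries. The checkpoint median was 15.6 TPM against their 17.0 TPM in replicate 1, and 16.6 against 15.1 TPM in replicate 2.

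Genes of the mitotic kinases and cyclins stood higher, with a median of 36.2 TPM in replicate 1 and 36.6 TPM in replicate 2. Cdk1, the kinase that drives mitotic entry, had 80.2 and 91.1 TPM. Its partners followed, Ccnb1 with 53.0 and 46.8 TPM, Ccnb2 with 36.7 and 37.7 TPM and Ccna2 with 35.7 and 35.5 TPM. Plk1, a kinase of many mitotic steps, had 26.7 and 21.8 TPM, and Aurka, the spindle pole kinase Aurora A, 21.7 TPM in both. The group median lay 1.75 ± 0.0676 above the kinetochore median on the log2(TPM + 1) scale (SD, n = 2). Both differences, of the checkpoint and of the kinase and cyclin genes from all 15 kinetochore genes, exceeded the spread of the 2 libraries. They describe chosen lists, and no test was run over genes.

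The chromosomal passenger complex corrects wrong attachments and moves to the spindle midzone. Birc5 (survivin) had 46.8 TPM in replicate 1 and 45.4 TPM in replicate 2, Cdca8 (borealin) 36.2 and 29.8 TPM, the kinase Aurkb 27.8 and 25.7 TPM and the scaffold Incenp 17.0 and 15.3 TPM. Highest and lowest differed 2.75-fold in replicate 1 and 2.98-fold in replicate 2 by TPM, but 1.25-fold and 1.15-fold by CPM, so the 4 genes gave nearly equal numbers of reads.

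Genes of anaphase onset were among the higher ones. Ube2c, the ubiquitin-conjugating enzyme of the APC/C, had 87.6 TPM in replicate 1 and 78.9 TPM in replicate 2. Cdc20, the APC/C activator that the checkpoint blocks, had 55.1 and 45.7 TPM. Pttg1 (securin), the inhibitor of separase, had 41.8 and 46.2 TPM. Ube2c and Cdc20 were lower in replicate 2 and Pttg1 was higher there.

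Spindle and cytokinesis genes ranged from Racgap1 down to Anln. Racgap1, the GTPase-activating subunit of centralspindlin, had 79.3 TPM in replicate 1 and 82.9 TPM in replicate 2, and its partner Ect2, the exchange factor that activates RhoA, 12.6 and 11.9 TPM. Prc1, which bundles midzone microtubules, had 33.5 and 30.8 TPM. Anln (anillin; chr9:22332012-22389188, reverse strand, GRCm38), a scaffold of the contractile ring, was the lowest of the 46 genes, at 3.76 and 4.37 TPM on 413 and 567 counts. Tpx2, an activator of Aurora A, had 19.7 and 17.2 TPM, and Hmmr, a spindle-associated protein and hyaluronan receptor, 9.07 and 8.0 TPM.

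Genes of chromosome structure had a median of 48.2 TPM in replicate 1 and 43.4 TPM in replicate 2, which lay 2.08 ± 0.0472 above the kinetochore median on the log2(TPM + 1) scale (SD, n = 2). Condensin I compacts mitotic chromosomes. Its SMC ATPase subunits had 67.1 and 59.2 TPM (Smc2) and 48.2 and 43.4 TPM (Smc4). Its non-SMC subunits had 51.33 and 46.03 TPM (Ncapd2), 16.5 and 17.2 TPM (Ncaph), and 9.35 and 9.60 TPM (Ncapg). Top2a, the topoisomerase that untangles sister DNA, had 50.3 and 44.9 TPM. Mki67, source of the proliferation marker Ki-67 and a coat of mitotic chromosomes, had 7.85 and 6.53 TPM.

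The division by length placed some genes far apart in the order. By mean TPM, Mki67 ranked 41st of the 46 and by CPM 13th, on 1618 and 1590 counts. Cenpe moved in the same direction, ranking 45th by TPM and 25th by CPM. Cdk1 ranked 2nd by TPM and 14th by CPM, and Pttg1 13th and 34th. Bub3 ranked 1st on both scales.

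The high median TPM of the chromosome structure group did not hold when TPM was summed over complete coding transcripts. These are protein coding transcripts not marked as having an incomplete end in GENCODE M21. On that scale, chosen after the data were seen, the group median was 8.61 TPM in replicate 1 and 8.92 TPM in replicate 2, and the kinetochore median was 8.91 and 8.01 TPM. The difference was 0.05 ± 0.130 on the log2(TPM + 1) scale, smaller than the spread of the libraries (SD, n = 2). By gene, mean TPM was 29.5 for Top2a, 29.1 for Ncapd2, 15.9 for Ncaph and 8.765 for Ncapg. It was 7.58 for Smc2, 7.19 for Mki67 and 1.4 for Smc4. Estimated counts on these transcripts, not divided by length, did differ between the groups. Their median was 852 in replicate 1 and 1011 in replicate 2 for chromosome structure, against 390 and 437 for the kinetochore genes. By TPM over complete coding transcripts, the checkpoint and the kinase and cyclin groups still lay above the kinetochore genes. The log2(TPM + 1) differences were 0.79 ± 0.185 and 1.97 ± 0.109 (SD, n = 2).

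Smc2 and Smc4 were the chromosome structure genes whose level differed most between these scales. Smc2 had 7.58 ± 0.269 TPM over complete coding transcripts, against 63.2 ± 5.54 TPM over all transcripts (SD, n = 2), and ranked 36th of the 46 in place of 5th. Its short processed transcript Smc2-203, of 643 bases, was given 41.7 TPM in replicate 1 and 34.0 TPM in replicate 2 on 468 and 451 counts. The coding Smc2-201, of 5404 bases, was given 7.77 and 7.39 TPM on 852 and 956 counts. So the coding transcript took more reads and the short one more TPM. In Smc4 complete coding transcripts had 2.93% of TPM in replicate 1 and 3.20% in replicate 2. Smc4-206, a coding transcript of 1163 bases with an incomplete end, had 29.0 and 23.7 TPM, and Smc4-207, annotated as a target of nonsense-mediated decay and 4057 bases long, 10.7 and 11.3 TPM. The 4316-base coding Smc4-201 had 1.37 and 1.39 TPM, within deposited intervals of 0.166 to 2.60 TPM in replicate 1 and 0.387 to 2.37 TPM in replicate 2.

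**Figure D2:**
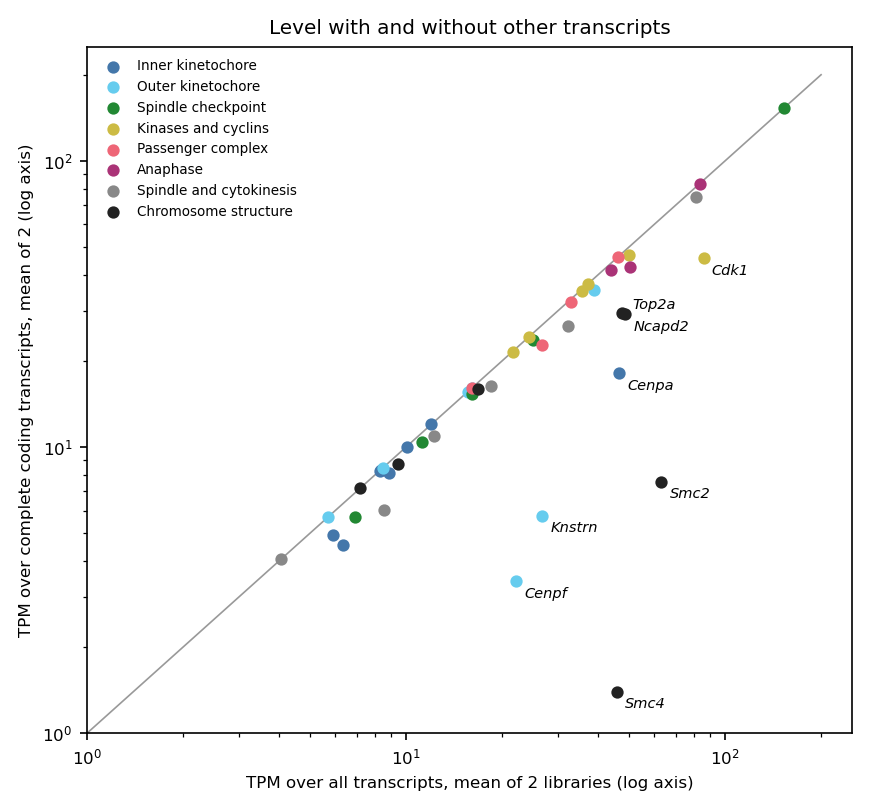
Mean TPM of each of the 46 genes over complete coding transcripts (vertical, log axis) against mean TPM over all transcripts of the gene (horizontal, log axis), coloured by role, with the line of equality. Most genes lie on or near the line. Smc2, Smc4, Cenpf, Knstrn and Cenpa lie far below it, and Cdk1, Top2a and Ncapd2 less far.

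Complete coding transcripts held under 50% of TPM in both libraries in 5 of the 46 genes, or 10.9%, against 11.9% of the 13574 protein coding genes averaging at least 1 TPM. These were Cenpa, Cenpf, Knstrn, Smc2 and Smc4. They held 90% or more in 28 genes, or 60.9%, against 55.9% of all such genes, so the list as a whole was close to the background. Cenpa had 37.1% on complete coding transcripts in replicate 1 and 41.4% in replicate 2. Its decay-annotated Cenpa-202 had 39.9% and 40.4%, and its coding Cenpa-205 had 35.0% and 38.2%. Cenpf had 16.3% and 14.4%, with the 11130-base Cenpf-204 at 3.72 and 3.08 TPM on 848 and 829 counts. Cdk1 had 54.4% and 52.6%. Its retained-intron transcripts Cdk1-203, of 378 bases, and Cdk1-204, of 475 bases, had 24.4% and 20.8% of its TPM in replicate 1 and 26.1% and 20.3% in replicate 2. Over complete coding transcripts Cdk1 had 45.8 ± 3.02 TPM (SD, n = 2) and ranked 6th of the 46 in place of 2nd.

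Some genes used more than 1 coding transcript. Mad2l1-202 had 62.4% of the TPM of Mad2l1 in replicate 1 and 62.9% in replicate 2, and Mad2l1-201 had 32.8% and 31.0%. Spc25-201 had 63.0% and 63.5% and Spc25-202 had 27.3% and 29.2%. These shares differed little between the libraries. Pttg1 was noticed after its values were seen. Its 696-base Pttg1-205 had 55.7% in replicate 1 and was listed at 0 in replicate 2, and its 700-base Pttg1-203 was listed at 0 in replicate 1 and had 50.01% in replicate 2. The deposited intervals of Pttg1-205 were 9.42 to 27.1 TPM in replicate 1 and 0.163 to 12.8 TPM in replicate 2. Those of Pttg1-203 were 0.000289 to 9.67 TPM and 9.21 to 25.8 TPM. For each transcript the intervals of the libraries overlapped, so a switch between these transcripts of near-equal length was not detectable from these values.

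Between the libraries, 36 of the 46 genes had a lower TPM in replicate 2, where 54.3% of the 15878 genes averaging at least 1 TPM were lower there, and 55.5% of the 11064 within the TPM range of the list. The median log2(TPM + 1) ratio of replicate 2 over replicate 1 was -0.13 over the 46 genes and -0.01 over those 15878 genes. Ratios ran between -0.44 in Cenpu and 0.18 in Cenpk. The median absolute ratio was 0.15, against 0.08 over the 11064 genes within the TPM range of the list. The direction was shared by most roles. It held for 14 of 15 kinetochore genes, 4 of 5 checkpoint genes, all 4 passenger genes and 5 of 7 chromosome structure genes, but for 3 of the 6 kinases and cyclins.

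**Figure D3:**
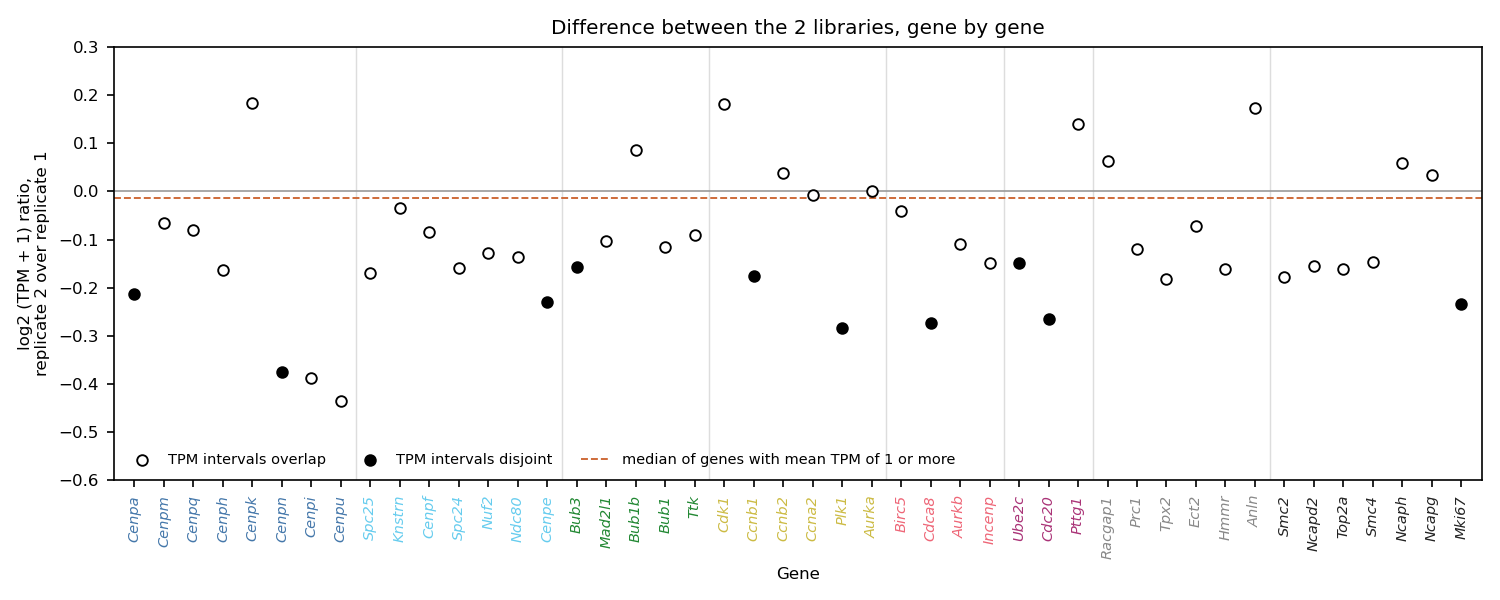
Log2 ratio of TPM + 1 in replicate 2 over replicate 1 for each of the 46 genes, grouped by role as in the plot of levels. Filled points mark genes whose deposited TPM intervals do not overlap between the libraries, and the dashed line is the median of genes averaging at least 1 TPM. The 10 filled points all lie below 0, between -0.15 and -0.37.

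The deposited TPM intervals were disjoint and lower in replicate 2 for 10 of the 46 genes and higher there for 0, where 4.82% of genes averaging at least 1 TPM were lower and 4.45% higher, 9.27% in all. Within the TPM range of the list the shares were 4.97% lower and 4.48% higher, 9.45% in all. With TPM rescaled by the spike-ins, which lowers all genes of replicate 2 alike, 21 of the 46 had disjoint lower intervals, against 26.5% of all genes averaging at least 1 TPM. On that scale 42 of the 46 were lower, against 82.7% of those genes, and the median ratio was -0.25 over the 46 and -0.14 over those genes. On the deposited scale, the 10 were Cenpa, Cenpn, Cenpe, Bub3, Plk1, Ccnb1, Cdca8, Cdc20, Ube2c and Mki67. Bub3 ran between 152.8 and 160.4 TPM in replicate 1 and between 137.6 and 144.2 TPM in replicate 2. Cdc20 ran between 49.98 and 58.76 TPM in replicate 1 and between 42.77 and 49.18 TPM in replicate 2. Plk1 ran between 24.5 and 27.5 TPM and between 20.1 and 22.5 TPM. The intervals describe the estimate within a library, counting error included, and not the spread between samples. Ndc80, with 1 transcript and a deposited posterior SD of its count of 0, still had an interval of 7.82 to 9.54 TPM in replicate 1. The exact binomial test below rests on the same libraries and reads.

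A two-sided exact binomial test of the counts with Benjamini-Hochberg adjustment called 12 of the 46 genes lower in replicate 2 and 1 higher, where 6.01% of the 19687 genes tested were called lower and 6.67% higher, 12.7% in all. Among the 11023 tested genes within the TPM range of the list, 7.16% were called lower and 14.8% in either direction. That test compares these 2 libraries against counting error only. The lowest adjusted p of the exact binomial test were 2.8e-08 for Top2a, on 3670 counts in replicate 1 and 3708 in the larger library of replicate 2, 5.3e-07 for Bub3 and 3.3e-05 for Mki67. Cdk1 was the gene called higher, on 1349 and 1756 counts (exact binomial test, adjusted p = 0.027). Cdk1, Cenpf, Cenpu and Top2a were called without disjoint intervals, Ube2c had disjoint intervals without a call, and 9 genes had both. An edgeR exact test that allows for the common dispersion of the pair, a biological coefficient of variation of 6.29%, called 0 of the 46. In that test 2 of the 46 had an unadjusted p under 0.05, and 1.95% of all genes tested were called. The dispersion was estimated from the same 2 libraries, so differences of the usual size between them count as spread in advance. The 0 calls therefore do not show that the 46 genes were alike in the libraries.

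Markers of cell types moved between the same libraries. The 8 choroid plexus markers had a median log2 ratio of 0.91, with 7 higher in replicate 2. The most abundant of them, Ttr, was at 533 TPM in replicate 1 and 1022 TPM in replicate 2. Of the 10 hindbrain markers 5 had disjoint intervals. Atoh1, which marks rhombic lip progenitors, had 6.35 TPM in replicate 1 and 16.4 TPM in replicate 2, and Hoxb2 and Hoxb5 were also higher there. En1 had 6.33 and 3.21 TPM and Meis2 had 143 and 113 TPM, both lower in replicate 2. All 8 mesenchyme markers were lower in replicate 2, with a median ratio of -0.20. Of 10 progenitor markers 8 were higher there, with a median ratio of 0.12, and of 10 neuron markers 7 were lower, with a median ratio of -0.05. Summed TPM was 2831 in replicate 1 and 3106 in replicate 2 for progenitor markers, and 4505 and 4329 for neuron markers. Fabp7 alone had 1787 and 2042 TPM, most of the progenitor sum. Among progenitor markers, Fabp7, Hes1 and Slc1a3 had disjoint higher intervals in replicate 2. Nes (43.7 and 39.1 TPM) and Hes5 (150 and 125 TPM) had disjoint lower ones. All 8 microglia markers and 5 of 6 muscle markers were higher in replicate 2, with sums of 122 and 147 TPM and of 48.4 and 57.5 TPM. Erythroid and endothelial markers had median ratios of -0.08 and 0.02. Of the choroid plexus markers Kl alone stayed below 1 TPM, at a mean of 0.58 TPM. The part of any of these in the lower mitotic values was not tested.

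Other mitotic genes were set beside the 46. All 12 mitotic kinesins, motors of spindle assembly and midzone, had a lower TPM in replicate 2, with a median ratio of -0.13 and 0 disjoint intervals. They had a low median of 5.89 ± 0.619 TPM (SD, n = 2), from Kif22 at 22.7 ± 1.55 TPM to Kif14 at 0.88 ± 0.0283 TPM. The 17 core and partner genes of the APC/C had a high median of 99.6 ± 3.37 TPM and a median ratio of 0.01, with 8 lower in replicate 2. Anapc5, a scaffold subunit, had 328 ± 3.56 TPM. The 9 other centromere genes, Cenpb, which binds centromeric DNA, and 8 further CCAN genes, had a median of 13.7 ± 0.0141 TPM, and the MIS12, KNL1 and RZZ genes (10), which link and load the outer kinetochore, 10.6 ± 1.17 TPM (SD, n = 2 each). In that list Zwint stood apart at 493 TPM in replicate 1 and 470 TPM in replicate 2. Cohesin and its regulators (16) had a median of 17.3 ± 0.173 TPM (SD, n = 2).

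The 26 DNA replication genes had a median of 25.1 ± 1.29 TPM, close to the 21.9 ± 0.477 TPM of the 46 mitotic genes (SD, n = 2 each). Of these, 19 were lower in replicate 2, with a median ratio of -0.06, and Rrm1 and Rrm2, the ribonucleotide reductase subunits, had disjoint lower intervals. The 15 G1 cyclin and CDK inhibitor genes had a median of 22.1 ± 0.0141 TPM, with Cdk4 at 973 ± 27.6 TPM and Cdkn2a listed at 0 (SD, n = 2). The 10 centrosome genes of primary microcephaly had a median of 4.32 ± 0.145 TPM, with Cep63 highest at 25.0 ± 0.163 TPM (SD, n = 2). Of 16 genes of mitotic entry and the DREAM and MuvB complexes, all were detected. Foxm1, a transcription factor of late cell cycle genes, had 7.68 and 7.08 TPM, and Mybl2 (B-Myb) 5.20 and 5.22 TPM. Cdc25b, a phosphatase that activates Cdk1, had disjoint lower intervals, with 34.1 TPM in replicate 1 and 27.7 TPM in replicate 2.

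**Figure D4:**
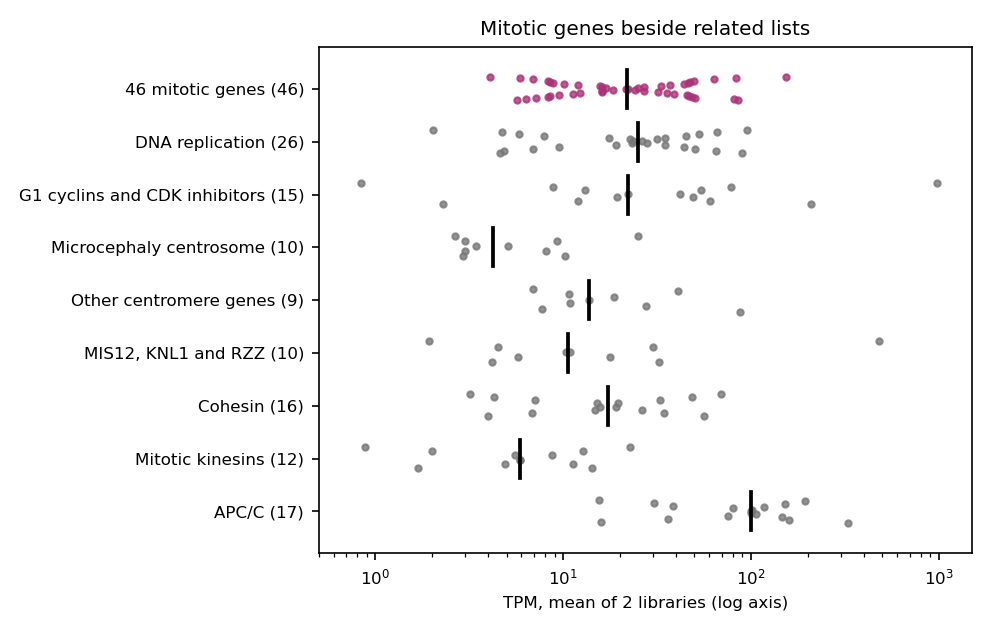
Mean TPM (log axis) of each gene in the list of 46 mitotic genes and in 8 related lists, with the number of genes in parentheses and a bar at the median. Genes below 0.5 TPM are not drawn. The 46 genes and the DNA replication genes have close medians, 21.9 and 25.1 TPM, while APC/C genes lie higher and mitotic kinesins and microcephaly genes lower.

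Promoter windows, 250 bases before and 50 after a RefSeq start, were found for 40 of the 46 genes. Aurkb, Ccna2, Incenp, Smc4, Spc24 and Tpx2 were not among them. A CHR element stood in 25 of the 40, or 62.5%, against 20.2% of all 27025 genes with a window and 18.5% of 17491 protein coding genes. A CCAAT box stood in 32, or 80.0%, against 41.1% of all genes. Both motifs stood in 23, or 57.5%, against 7.97% of all genes. Of the 32851 windows of all genes, 17.9% held a CHR element and 37.4% a CCAAT box. In 23 of the 25 genes a CHR match lay within 50 bases of the start, on either side. In some of them the only CHR match lay after the start, as in Cenpa (17 to 22), Plk1 (31 to 36) and Aurka (33 to 38). The CHR share is therefore not one of upstream elements alone. Among all matches in the windows of the list, 1 overlapped a match of the other motif. These are matches of letters, with no test run over genes.

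By role, CHR matches were counted in small numbers of genes, and no difference between roles was tested. All 5 spindle and cytokinesis genes with a window held one (Anln, Ect2, Hmmr, Prc1 and Racgap1), as did 5 of 6 chromosome structure genes and 4 of 5 kinases and cyclins, with Ccnb1 the exception. So did 2 of 3 anaphase genes, 3 of 5 checkpoint genes, 3 of 6 outer kinetochore genes and 1 of 2 passenger genes. Among inner kinetochore genes 2 of 8 did, Cenpa and Cenpn, although all 8 held a CCAAT box. Anln and Ndc80 held a CHR element and no CCAAT box. Outside the list, 10 of 11 mitotic kinesins held a CHR element, but 4 of 20 DNA replication genes, 3 of 16 APC/C genes and 1 of 11 G1 genes did. Of the 10 genes with disjoint intervals, Cenpa, Cenpn, Bub3, Plk1, Cdca8, Cdc20, Ube2c and Mki67 held a CHR match. Cenpe and Ccnb1 did not, where 62.5% of the list genes with a window held one.

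**Figure D5:**
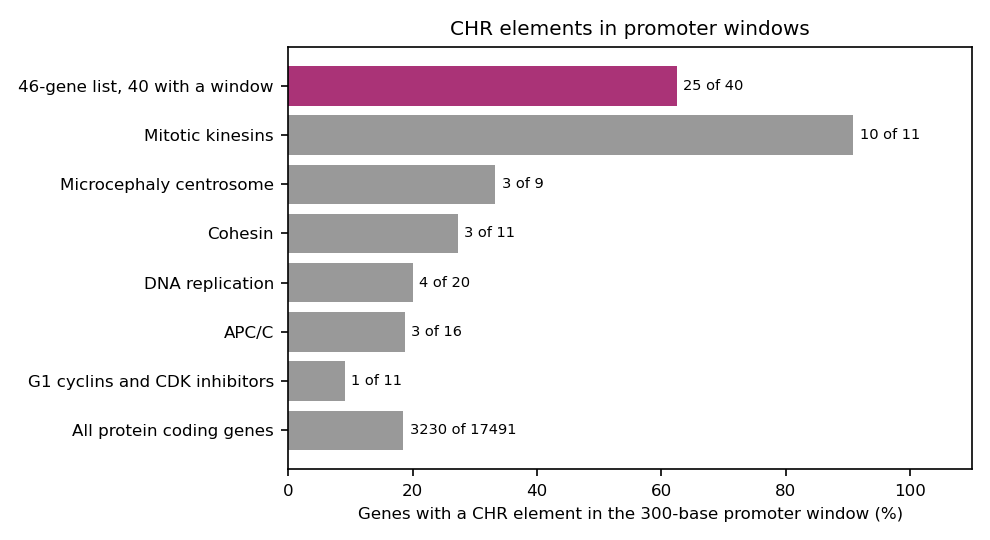
Percent of genes with a CHR element in the promoter window of 300 bases, for the 46-gene list (40 with a window), 6 related lists and all protein coding genes, with counts beside the bars. The 46-gene list stands at 62.5% and all protein coding genes at 18.5%, with mitotic kinesins above the list and DNA replication genes near the background.

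Exon bases of 13 of the 46 genes are shared with another gene in GENCODE M21, in 11 genes with a gene on the opposite strand. Some of their reads could therefore come from the other gene, although the deposited counts rest on GENCODE M4. Whether counting used strand is not given in the sources used here. Cenpu, with the lowest ratio of the 46, shares 1069 exon bases with Primpol on the opposite strand, which had 5.23 TPM in replicate 1 and 7.14 TPM in replicate 2, so reads of this pair may not be told apart. Ncapg shares 944 bases with Lcorl, Ube2c 592 with Tnnc2 and Ccna2 510 with Exosc9. Prc1 shares 911 bases with Rccd1, but the deposited posterior SD of its count was 0 in both libraries. The same held for Cenpk and Cenpq, which also share exon bases, so their deposited counts carried no such ambiguity. In 34 genes the deposited posterior SD of the count was 0 in both libraries, and it was largest in Ccna2, at 14.8 of 2085 counts in replicate 1 and 15.7 of 2455 counts in replicate 2.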

How the data were processed

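For each library the authors deposited gene and transcript tables. Estimated counts (expected counts, not whole numbers), TPM and FPKM are values deposited by the authors, with spike-ins and all other rows in the scaling. The deposited percent is the share of a gene's TPM on a transcript. The signal values deposited by the authors are the bounds of credibility intervals of TPM and FPKM, whose level is not stated, and a posterior SD of the count was deposited as well. Such an interval surrounds a posterior mean, so a TPM can lie outside it, as for 2 of the 46 genes (Bub3 and Ect2, replicate 1). The assembly was mm10 with GENCODE M4, per the submitters' processing notes. Aligner, counting program and strand setting: not given in the sources used here.

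Names, coordinates and transcript types came from GENCODE M21 on GRCm38, the build of mm10, and 42462 of 43346 Ensembl genes matched. All 236 transcripts of the 46 genes were named. Comparisons of level are on the log2(TPM + 1) scale, where differences of low genes are understated. CPM was computed from the counts. Rounded counts were tested with SciPy 1.17.1 by a two-sided exact binomial test given TMM library sizes (edgeR 4.0.16, R 4.3.3) over genes whose pair of counts summed to 10 or more, adjusted by Benjamini-Hochberg at 0.05. Its p-values measure counting error only, and without molecular identifiers reads may repeat a molecule. A single group allows no quasi-likelihood test, so edgeR's exact test with the common dispersion of the pair and DESeq2 1.42.0 size factors were alternatives. Of the count methods, only the binomial test was run on simulated counts, which held no spread between libraries beyond counting error. Python 3.11.15 was used with pandas 2.3.3, numpy 2.4.6 and matplotlib 3.10.9. Motifs were searched in RefSeq promoter windows on GRCm38.p6.

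The members and all gene lists were chosen with earlier results of these data known. All 46 members are named. Of other lists, the rule names the 2 highest and the lowest member and any with disjoint intervals, and some of these are given. Foxm1 and Mybl2 fall outside it and were chosen after their values were seen. Transcripts are named from 20% of a gene's TPM in both libraries in genes averaging at least 10 TPM, with Smc2-201, Smc4-201, Cenpf-204 and those of Pttg1 added after their values were seen.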

Additional observations from a re-analysis of the deposited data

How the results depend on the processing

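The median log2(TPM + 1) level of the 46 genes was 4.52, and 4.46 with a pseudocount of 0.1, 3.88 by FPKM, 4.94 by CPM and 4.09 over complete coding transcripts, an alternative chosen after seeing the data. The checkpoint minus kinetochore difference of 0.63 was 0.89 by CPM and 0.79 over complete coding transcripts. The kinase and cyclin minus kinetochore difference of 1.75 was 1.84 with a pseudocount of 0.1, 1.66 by CPM and 1.97 over complete coding transcripts. The chromosome structure minus kinetochore difference of 2.08 was 2.17 with a pseudocount of 0.1, 2.02 by FPKM, 2.01 by CPM and 0.0472 over complete coding transcripts. Without 1 replicate, the level was 4.50 to 4.54 and the differences 0.54 to 0.71, 1.71 to 1.8 and 2.04 to 2.11. The chromosome structure median over complete coding transcripts was below the kinetochore median in replicate 1 and above it in replicate 2. The other differences kept their direction under these alternatives. The number of genes detected was 44 at a TPM of 5 or more and 46 otherwise. The median ratio of replicate 2 over replicate 1 was -0.25, with 42 of the 46 genes lower (82.7% of all genes), when TPM was rescaled by the spike-ins, whose summed TPM had a log2 ratio of 0.12, and 21 of the 46 then had disjoint lower intervals (26.5% of all genes). Under the other alternatives the ratio was between -0.14 and -0.09. The 12 lower calls and the 1 higher call became 0 and 0 with edgeR's exact test and the common dispersion, which by construction adds a spread between libraries. No paired analysis was possible because the 2 libraries form 1 group. With 2 libraries, an SD rests on 1 degree of freedom, and levels of transcripts that overlap in sequence are estimates.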
